A study of Mus musculus with 18 samples.

Results

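The genes described here encode the cytokine IL-10, the receptor chains for IL-10, IL-4, IL-13 and IL-6, and the transcription factors STAT3 and STAT6 that these receptors engage. They were taken by symbol, after the versioned Ensembl identifiers of the count tables had been matched to the mouse annotation: Il10, Il10ra, Il10rb, Il4ra, Il13ra1, Il6ra, Il6st, Stat3 and Stat6. All 9 were among the 13759 genes of the macrophage table and among the 54309 genes of the lymphocyte table, of which 9 and 7, respectively, had enough counts to be tested.

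Bulk RNA-seq was performed on cells sorted from C57BL/6J female mice of 8 to 10 weeks of age, 20 days after intrasplenic injection of MC38 cells, a mouse colon adenocarcinoma line that seeds the liver. Metastasis-associated macrophages (MAMs) were sorted from liver metastases as lineage-negative CD45+ CD11b+ cells with high (F4/80high, n = 3) or lower (F4/80low, n = 3; named F4/80int in the study) surface F4/80. Lymphocytes were sorted as lineage-negative CD45+ NKp46+ cells into MFL NK cells (CD49a- CD49b+) and MFL ILC1 (CD49a+ CD49b-) from metastasis-free liver (MFL), and into LM CD49a- NK cells (CD49a- CD49b+) and LM CD49a+ NK cells (CD49a+ CD49b+) from liver metastasis (LM), with n = 3 libraries per population, each a pool of 6 to 8 samples. The labels name no engineered allele, and MFL and LM tissue were dissociated differently, so that site and dissociation cannot be told apart.

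Totals ranged from 21278959 to 32267015 estimated counts in the 6 MAM libraries and from 8795721 to 14386834 in the 12 lymphocyte libraries. Adgre1, which encodes F4/80, was at 958 counts per 1000000 counts of the library (CPM) on average in F4/80high and 146 CPM in F4/80low MAMs, and the LM CD49a+ NK libraries, although titled ILC1, held Eomes at 500 to 902 CPM against 7.58 to 40.2 CPM in MFL ILC1. Genes varied far more between lymphocyte libraries of a population (biological coefficient of variation 0.511 to 1.22) than between MAM libraries (0.160 and 0.164). The lymphocyte pools came from 3 independent sorts, and the labels do not say that a replicate number marks a sort. For MAMs the sources used here do not say whether libraries came from separate experiments, so those p-values measure the spread between these libraries.

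IL-10 signals through a receptor of IL-10RA, the ligand-binding chain, and IL-10RB, which is shared with other cytokines of its family. IL-10RA recruits JAK1 and the receptor activates STAT3, the route by which IL-10 restrains inflammatory gene expression in macrophages. IL-4 binds IL-4RA, which pairs with the common gamma chain in lymphocytes and myeloid cells or with IL-13RA1 to form the receptor that also takes IL-13, and both forms activate STAT6, the factor behind alternative macrophage activation. IL-6 binds IL-6RA, and the complex signals through gp130, encoded by Il6st, again to STAT3.

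In MAMs, each of the 9 transcripts differed between the F4/80high and F4/80low gates. Il10, Il10rb and Il4ra were higher in F4/80high MAMs, and Il10ra, Il13ra1, Il6ra, Il6st, Stat3 and Stat6 were lower, so that the chains of the IL-10 receptor moved in opposite directions and so did IL-4RA and its IL-13-binding partner. All 9 passed at an adjusted p under 0.1 (edgeR quasi-likelihood test, Benjamini-Hochberg over all genes), 3 higher and 6 lower, with a median log2 fold change of -0.48 where the median of all genes was 0.01. The gates differed widely, since 54.9% of all genes passed (27.8% higher and 27.1% lower) and the libraries of the gates did not overlap for 58.4% of them, against 8 of the 9 genes described, so that passing the test is itself common in this comparison.

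Il10 (chr1:130947581-130952711, GRCm39, plus strand) encodes the ligand. It was at 4.41, 1.03 and 2.37 CPM in F4/80high replicates 1, 2 and 3, and at 1.41, 0.34 and 1.21 CPM in the F4/80low replicates. The gates overlapped, replicate 2 was the lowest library in both, and the values rested on 29 to 98 and 10 to 43 counts. The fitted difference was 2.62-fold (log2 1.39 ± 0.62 SE), at the edge of the threshold (edgeR adjusted p = 0.0993). It no longer passed without F4/80high replicate 1 (0.341), F4/80low replicate 2 (0.221), F4/80high replicate 3 (0.146) or F4/80low replicate 3 (0.135), nor with RLE in place of TMM size factors (0.102). It passed with DESeq2 (adjusted p = 0.0450) and without F4/80high replicate 2 (0.0372) or F4/80low replicate 1 (0.0982).

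Il10ra (chr9:45165132-45180563, minus strand) encodes the IL-10-binding chain. It was at 266, 238 and 307 CPM in F4/80high and at 421, 444 and 451 CPM in F4/80low MAMs, and every F4/80low library lay above every F4/80high library. It was 1.62-fold lower in F4/80high MAMs (log2 -0.70 ± 0.11 SE, edgeR adjusted p = 0.00102). Il10rb (chr16:91203012-91224600, plus strand), the signalling partner, went the other way, at 193, 190 and 205 CPM in F4/80high and 112, 126 and 141 CPM in F4/80low MAMs. It was 1.55-fold higher in F4/80high MAMs without overlap (log2 0.63 ± 0.10 SE, edgeR adjusted p = 0.00114). A read-through gene annotated across Il10rb on its strand, Gm21970, was not among the genes of the MAM table and was at 0 counts in all lymphocyte libraries except MFL NK replicate 3, with 4.

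Il4ra (chr7:125151079-125182844, plus strand), the IL-4-binding chain, was at 547, 520 and 606 CPM in F4/80high and at 416, 416 and 434 CPM in F4/80low MAMs, a narrow 1.32-fold difference without overlap (log2 0.40 ± 0.09 SE, edgeR adjusted p = 0.00654). Il13ra1 (chrX:35375461-35435331, plus strand), which joins IL-4RA in the receptor shared by IL-4 and IL-13, was at 78.3, 71.5 and 98.7 CPM in F4/80high and at 153, 152 and 192 CPM in F4/80low MAMs. It had the largest fall of the receptor chains, 2.00-fold (log2 -1.002 ± 0.14 SE, edgeR adjusted p = 0.000719).

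Il6ra (chr3:89771366-89820719, minus strand), the IL-6-binding chain, was at 158, 121 and 173 CPM in F4/80high and at 207, 239 and 222 CPM in F4/80low MAMs. The gates did not overlap and the difference was 1.48-fold (log2 -0.56 ± 0.13 SE, edgeR adjusted p = 0.00885). Il6st (chr13:112600604-112646620, plus strand), encoding gp130, was at 58.3, 71.1 and 69.5 CPM in F4/80high and at 82.6, 104 and 83.3 CPM in F4/80low MAMs. Both parts of the IL-6 receptor were thus lower in F4/80high MAMs, Il6st by 1.36-fold and without overlap (log2 -0.44 ± 0.12 SE, edgeR adjusted p = 0.0167).

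Stat3 (chr11:100775924-100830450, minus strand), the effector of the IL-10 and IL-6 receptors, was at 215, 176 and 218 CPM in F4/80high and at 381, 386 and 389 CPM in F4/80low MAMs. The F4/80low libraries lay close together, all above the F4/80high libraries, and the fall was 1.89-fold (log2 -0.92 ± 0.10 SE, edgeR adjusted p = 0.000165). Stat6 (chr10:127477821-127496862, plus strand), the effector of IL-4RA, was at 206, 197 and 231 CPM in F4/80high and at 273, 295 and 316 CPM in F4/80low MAMs. It was 1.39-fold lower without overlap (log2 -0.48 ± 0.10 SE, edgeR adjusted p = 0.00394). Both genes cross a neighbor on the other strand (Stat5a and Nab2), and the library kit kept the strand.

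**Figure D1:**
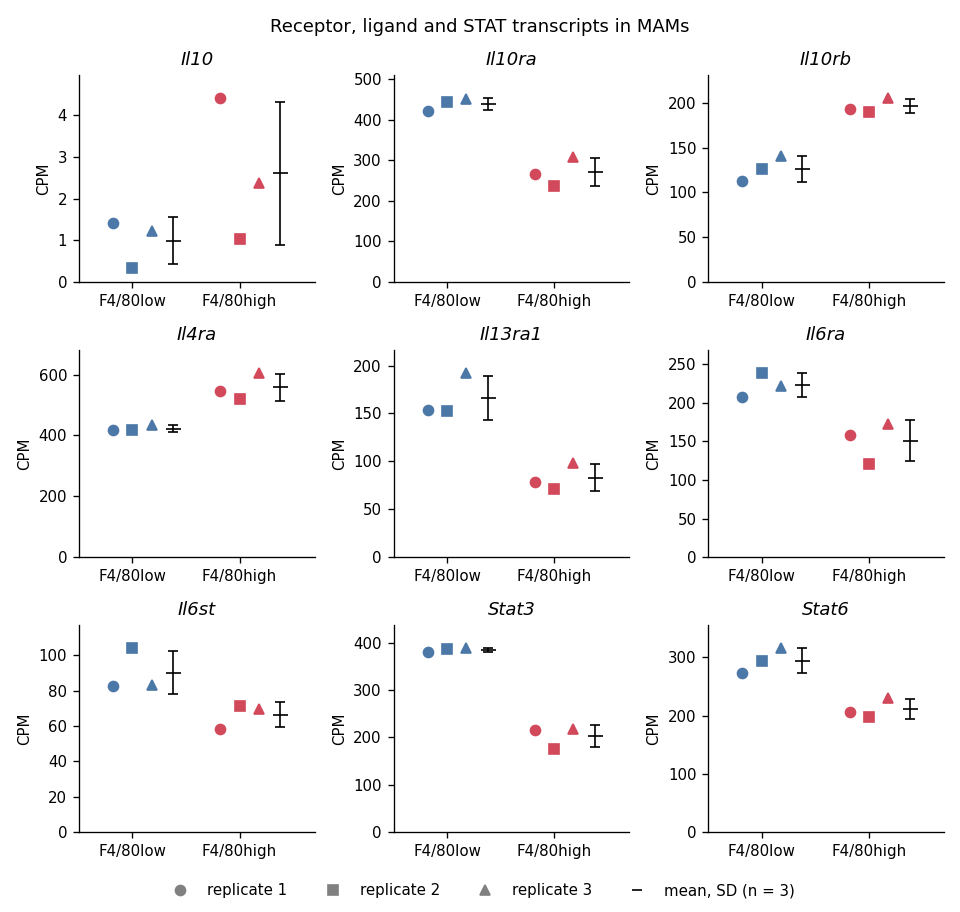
CPM of the 9 transcripts in the 3 F4/80low (blue) and 3 F4/80high (red) MAM libraries; symbols mark the replicate, and the black bar and whiskers give the mean and SD. Il10rb and Il4ra sit higher in every F4/80high library, 6 transcripts sit lower in every F4/80high library, and the libraries overlap for Il10.

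Divided by the length of annotated exons, which puts genes on a common scale, Il10ra led in both gates with 61.9 ± 8.0 CPM per kb (SD, n = 3) in F4/80high and 100 ± 3.5 in F4/80low MAMs. In F4/80low MAMs it was followed by Stat6 (44.0), Il4ra (42.3), Stat3 (38.1), Il13ra1 (35.1), Il6ra (25.2), Il10rb (20.6), Il6st (5.80) and Il10 (0.754 CPM per kb). Stat6 and Il4ra overlapped between libraries, as did Stat3 and Il13ra1, and the other neighbors in this order did not. In F4/80high MAMs Il4ra (55.9 CPM per kb) overlapped Il10ra, and Il10rb stood at rank 3 with 32.0 CPM per kb, overlapping Stat6 (31.6), where it had been at rank 7 in F4/80low MAMs. Stat3 (20.1), Il13ra1 (17.5) and Il6ra (17.0) overlapped one another there, followed by Il6st (4.27) and Il10 (1.99 CPM per kb). The exon length counts every annotated isoform, so that the order between genes depends on it and the comparison of gates does not.

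Taken within each library, the ratio of Il10ra to Il10rb (CPM per kb over CPM per kb) was 1.93, 1.76 and 2.10 in F4/80high and 5.27, 4.94 and 4.49 in F4/80low MAMs. The ratio of Il4ra to Il13ra1 was 3.31, 3.45 and 2.91 in F4/80high against 1.29, 1.30 and 1.07 in F4/80low MAMs. Stat3 to Stat6 stood at 0.692, 0.591 and 0.627 against 0.925, 0.868 and 0.814. These 3 ratios separated the gates in every library, each with the smallest p that 3 against 3 libraries allow (two-sided exact permutation test, p = 0.1, adjusted 0.175 over the 14 ratio comparisons made). The ratio of Il6st to Il6ra overlapped, at 0.210, 0.335 and 0.229 against 0.227, 0.248 and 0.214 (exact permutation p = 0.8, adjusted 0.861). The ratios were chosen after the values were seen.

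**Figure D2:**
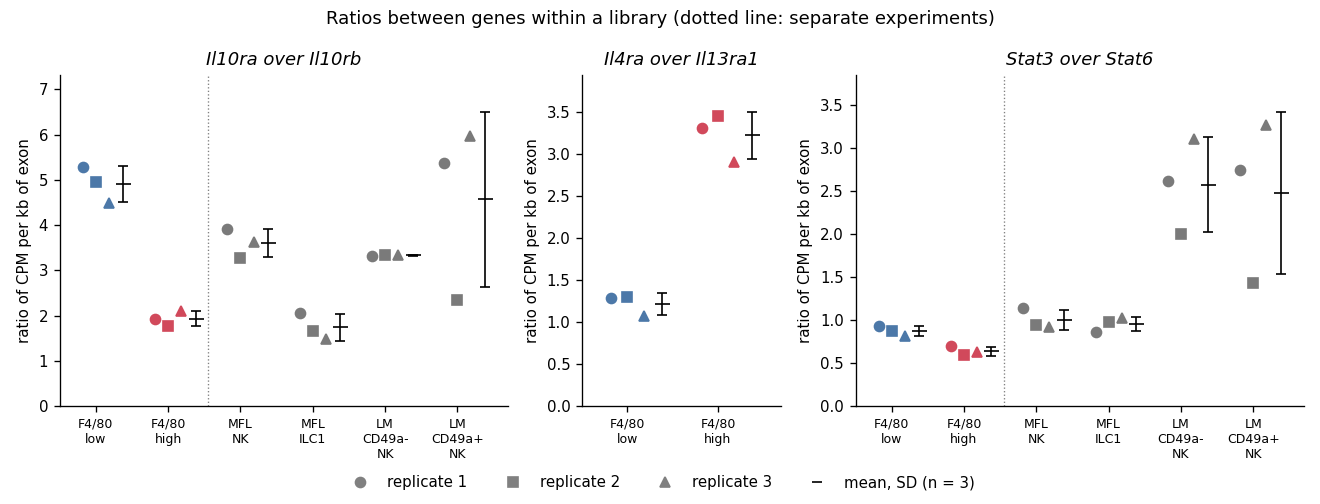
Ratio of CPM per kb of exon between genes of the same library, by group, with the replicate as symbol and the mean and SD (n = 3) beside it; a dotted line parts the MAM experiment (left) from the lymphocyte experiment. Il10ra over Il10rb lies between 1.76 and 2.10 in F4/80high and between 4.49 and 5.27 in F4/80low MAMs, and Stat3 over Stat6 lies between 1.43 and 3.26 in the LM NK libraries and between 0.856 and 1.13 in the MFL libraries.

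The other genes of these pathways were followed in 9 lists that held 83 genes, of which 69 were in the MAM table. Of these, 57 (82.6%) passed, 8 higher and 49 lower in F4/80high MAMs, so that 71.0% were lower against 27.1% of all genes. The lists were chosen with earlier results of these data known, so that these shares are a description. The IL-6 family ligands were on the lower side, with 4 of 7 lower and none higher: Lif was at 2.84 ± 1.04 CPM in F4/80high and 17.4 ± 3.2 CPM in F4/80low MAMs (SD, n = 3; log2 -2.63), Clcf1 at 3.83 ± 1.65 against 19.7 ± 2.7 CPM (log2 -2.36), and Osm, encoding oncostatin M, at 95.9 ± 32.0 against 317 ± 90 CPM (log2 -1.73). Il6 itself, below the level set for naming and named after its values were seen, was the fourth, at 0.104 ± 0.073 against 2.52 ± 1.52 CPM. Il4 and Il13 were not among the genes of the MAM table.

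The receptors and sheddases of the IL-6 family were the list that leaned higher, with 4 of 5 higher and 1 lower. Il11ra1, the IL-11-binding chain, was at 29.8 ± 0.5 CPM in F4/80high and 15.3 ± 0.7 CPM in F4/80low MAMs (log2 0.96), and Lifr, the gp130 partner that takes leukemia inhibitory factor, at 80.7 ± 26.9 against 41.7 ± 3.7 CPM (log2 0.95). Adam17, the protease that sheds IL-6RA from the cell surface, was at 299 ± 26 against 223 ± 25 CPM (log2 0.43). Il27ra, which pairs with gp130 for IL-27, was lower, at 2.58 ± 0.45 against 5.86 ± 1.25 CPM (log2 -1.18).

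The kinases and other STATs were lower or did not pass. Jak2 had the largest difference, at 50.9 ± 3.5 CPM in F4/80high and 332 ± 64 CPM in F4/80low MAMs (log2 -2.71, edgeR adjusted p = 5.34e-06), and Tyk2 (95 ± 18 against 186 ± 9 CPM) and Jak1 (224 ± 34 against 280 ± 6 CPM), the kinases of the IL-10 receptor, were lower too. Jak3, which works with the common gamma chain, did not pass (113 ± 17 against 133 ± 7 CPM). Among the other STATs, the genes named here were lower: Stat4 (9.9 ± 2.1 against 39.7 ± 8.1 CPM, log2 -2.01), Stat5a (35.4 ± 1.4 against 90.7 ± 15.7 CPM, log2 -1.36) and Stat2 (log2 -0.67). Il2rg, the common gamma chain that completes the IL-4 receptor, was at 144 ± 13 against 272 ± 11 CPM (log2 -0.92), and Irs2, an adaptor of IL-4RA, at 41.1 ± 8.3 against 57.5 ± 14.3 CPM (log2 -0.49).

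Among negative regulators 7 of 10 were lower and none higher. The feedback inhibitors Socs2 (4.4 ± 1.4 against 36.6 ± 10.8 CPM, log2 -3.08) and Cish (6.2 ± 2.5 against 44.8 ± 8.9 CPM, log2 -2.86) differed most, followed by Socs1 (12.4 ± 3.6 against 22.0 ± 3.2 CPM, log2 -0.83) and Socs3, the inhibitor that binds gp130 (337 ± 90 against 552 ± 101 CPM, log2 -0.71). Of 14 genes listed as responding to STAT3 or IL-10, 12 were lower and 1 higher, with a median log2 of -1.20. The kinase Pim1 was at 243 ± 66 against 1010 ± 234 CPM (log2 -2.05), the NF-kappaB inhibitor Tnip3 at 15.5 ± 2.8 against 63.1 ± 3.2 CPM (log2 -2.03), Slfn4 at 55.7 ± 16.5 against 194 ± 86 CPM (log2 -1.80) and the transcription factor Nfil3 at 48.2 ± 12.99 against 160 ± 48 CPM (log2 -1.73). Myc, the exception that was higher (59.4 ± 5.3 against 46.3 ± 2.0 CPM), was named after its values were seen.

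Of 22 genes listed for STAT6 and alternative activation, 17 were lower and 3 higher in F4/80high MAMs, with a median log2 of -2.27. The CCR4 ligands Ccl17 (1.31 ± 0.32 against 115 ± 32 CPM, log2 -6.45) and Ccl22 (4.65 ± 0.56 against 383 ± 116 CPM, log2 -6.36), the secreted amino acid oxidase Il4i1 (2.26 ± 0.66 against 77.3 ± 24.8 CPM, log2 -5.12) and Cdh1, encoding E-cadherin (9.24 ± 1.97 against 234 ± 39 CPM, log2 -4.66), differed most. Genes of the same list went the other way, and the 3 that were higher, named after their values were seen, were Mrc1, the mannose receptor (1372 ± 309 against 228 ± 28 CPM, log2 2.59), the cholesterol hydroxylase Ch25h (102 ± 22 against 6.63 ± 0.73 CPM, log2 3.94) and the cyclooxygenase Ptgs1 (153 ± 12 against 29.3 ± 4.3 CPM, log2 2.39). Several genes of this list are also made by dendritic cells, and the 7 dendritic cell markers, Flt3 and Zbtb46 among them, summed to 376 to 670 CPM in F4/80low and 10.3 to 16.9 CPM in F4/80high MAMs. The 7 classical monocyte markers, which share Chil3 with the STAT6 list, summed to 2237 to 2551 against 908 to 1208 CPM, the 10 macrophage markers to 9832 to 12368 against 18723 to 24237 CPM, and the 5 proliferation markers to 378 to 468 against 1004 to 1198 CPM. Ccr2 made most of the monocyte sum in F4/80low MAMs (1358 to 1392 against 426 to 525 CPM). F13a1 of that list went the other way (151 to 264 against 411 to 755 CPM), and the others were lower in F4/80high MAMs, such as Ly6c2 (84.1 to 119 against 3.53 to 12.6 CPM). Markers of some other cells were also higher in F4/80low MAMs. The 6 of 7 NK cell and ILC1 markers in the table summed to 63.9 to 123 against 4.92 to 10.2 CPM, beside the lower Stat4, Socs2 and Cish. Most of that sum was Klrk1 (58.1 to 102 against 3.86 to 6.84 CPM). The 2 of 5 markers of tumor epithelium in the table, Epcam and Cdh17, summed to 9.21 to 18.95 against 0.259 to 0.495 CPM. Most of that sum was Epcam, on average 13.9 against 0.257 CPM. The keratins of that list (Krt8, Krt18 and Krt19) were not among the genes of the MAM table. MFL ILC1 held Epcam and Cdh17 too (17.7 and 34.9 CPM on average), with Krt18 and Krt19 at 0, and also Cdh1, as given below. The sum therefore cannot tell tumor cells apart, and their part in the lower Cdh1 was not tested. Endothelial markers summed to 38.9 to 43.2 against 15.9 to 18.4 CPM, with Pecam1 and Kdr higher in F4/80low MAMs. Cdh5 of that list went the other way (2.50 to 4.37 against 4.48 to 5.95 CPM). B cell markers leaned the other way, with overlap (6.36 to 19.7 against 18.6 to 36.9 CPM). The sums for T cells, neutrophils, hepatocytes and Kupffer cells overlapped, although single markers in them differed. S100a9, Mmp8, Cxcr2 and Retnlg were higher in F4/80low MAMs without overlap (S100a9 at 1.91 to 32.8 against 0 to 0.225 CPM). Csf3r, which made most of the neutrophil sum, overlapped (66.8 to 84.1 against 73.3 to 103 CPM). Of the Kupffer cell markers, Timd4 was higher in F4/80low MAMs (7.29 to 9.21 against 0.0901 to 0.519 CPM), whereas Vsig4, Marco and Cd5l were lower. The markers present in the MAM table had counts in both gates, though few for some of them (S100a8 at 0 to 0.0354 CPM in F4/80high MAMs). The part of these markers in the differences above was not tested. In bulk libraries fewer cells of a type and less RNA per cell cannot be told apart.

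**Figure D3:**
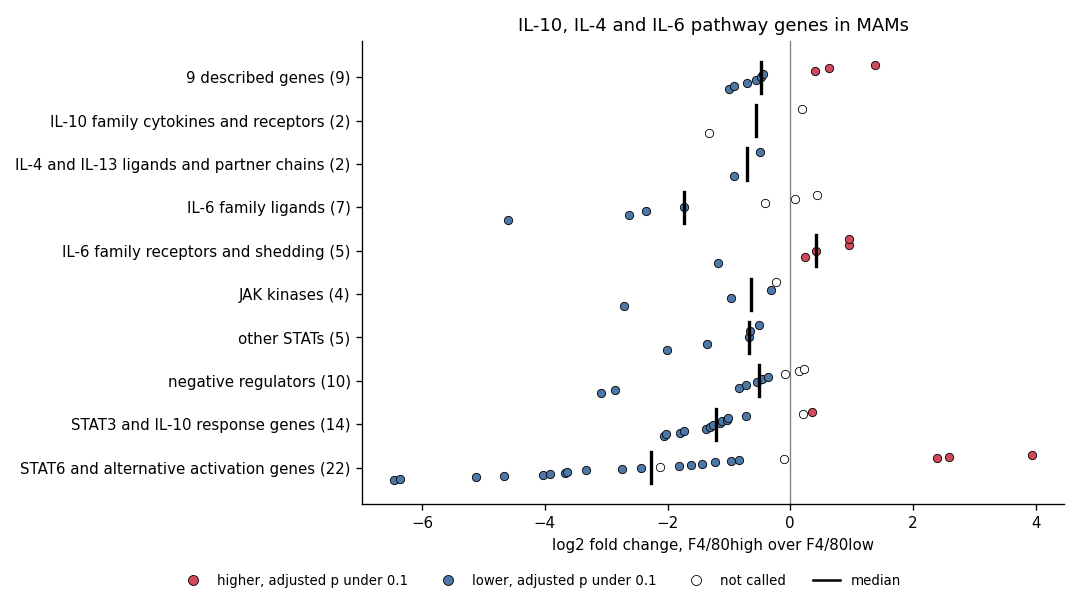
Log2 fold change of F4/80high over F4/80low MAMs for the 9 genes described and for the tested genes of the 9 pathway lists (number in brackets); filled points passed at an adjusted p under 0.1 and the black line is the median of the list. Medians run from -2.27 for the STAT6 and alternative activation genes to 0.43 for the IL-6 family receptors and sheddases, the single list whose median is above 0.

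STAT3 and other STATs bind TTC and GAA parted by a short spacer, written TTCNNNGAA, and STAT6 prefers the form with a longer spacer, TTCNNNNGAA. Each motif is its own reverse complement, so that both strands were searched at once, in the 250 bases before the start of the Ensembl canonical transcript (GENCODE annotation of GRCm39). None of the 9 genes described held either motif in this window, which says only that these letters are not there. Over the described and listed genes together, 8 of 92 (8.7%) held TTCNNNGAA, against 7.7% of 21770 protein-coding promoters, and 10 of 92 (10.9%) held TTCNNNNGAA, against 5.89%. Socs2, the feedback inhibitor with the largest fall, held neither motif in this window, nor did Ccl22, Il4i1 or Cdh1. The windows below were picked because their genes held a match and were lower in F4/80high MAMs, so they do not link the motif to expression. They surround the matches of 3 feedback inhibitors and of Ccl17, the list gene with the largest difference, with the motif in capitals and read along the strand of the gene.
Socs3: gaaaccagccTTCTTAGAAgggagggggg
Cish: tagctaccctTTCTGAGGAAcgtgggtggt
Socs1, nearest match: aggccaccgcTTCCTGGGAAgcccaagcca
Socs1, middle match: cgccttaggcTTCCTTTGAAgcctctgcgg
Socs1, farthest match: cccgcccggtTTCCGAGGAActaggccggg
Ccl17, nearer match: ttatctcaaaTTCTTTGAAtttctctagt
Ccl17, farther match: cgagtgaccaTTCTCTGGAAagccacaaac

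The Socs3 window lies at chr11:117860328-117860356 (GRCm39, minus strand), with the motif starting 223 bases before the transcript start, and the Cish window at chr9:107172989-107173018 (plus strand), 226 bases before. Socs1 held 3 matches of the longer form, starting 88, 120 and 172 bases before its start, in windows at chr16:10603944-10603973, chr16:10603976-10604005 and chr16:10604028-10604057 (minus strand). Ccl17 held both forms without overlap, starting 93 and 148 bases before its start (chr8:95536972-95537000 and chr8:95536917-95536946, plus strand). These matches describe sequence and not binding.

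In the lymphocytes the receptor genes followed another pattern. Il10ra, Il10rb, Il4ra, Stat3 and Stat6 were detected in all 12 libraries, Il6st was low, and Il10, Il13ra1 and Il6ra were at or near 0. Il10 had 3 counts in MFL NK replicate 2, 4 counts in LM CD49a- NK replicate 3 and 0 in the other libraries, where 3 counts would correspond to 0.219 to 0.334 CPM depending on depth. Il13ra1 had 15 counts in MFL ILC1 replicate 2 and 0 in the other 11 libraries.

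Il6ra was at 0 in 8 of 12 libraries. It was at 1.44 and 6.66 CPM in MFL ILC1 replicates 1 and 2, 2.27 CPM in LM CD49a+ NK replicate 2 and 0.294 CPM in MFL NK replicate 3, so that no population had it in every library. The 10 macrophage markers summed to 123 CPM in MFL ILC1 replicate 2 and to 44.3 CPM in LM CD49a+ NK replicate 2, the highest values of the 12 libraries, and to 9.59 CPM in MFL ILC1 replicate 1. Over the 12 libraries the 3 genes whose log2 CPM followed Il6ra most closely, of 9775 ranked, were the myeloid genes Lyz2 (Pearson r = 0.91) and Fn1 (0.91) and the matrix gene Thbs1 (0.89). The points share their libraries and 8 of them are at 0.

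Comparing the lymphocytes of metastasis-free liver asks how ILC1 and NK cells of the same tissue differ. Il10ra was at 411, 347 and 357 CPM in MFL NK cells, and at 176, 148 and 129 CPM in MFL ILC1. No library overlapped, and it was 2.46-fold lower in ILC1 (log2 -1.30 ± 0.22 SE, edgeR adjusted p = 0.00204). Il4ra was at 92.2, 106 and 110 CPM in MFL NK cells and at 290, 268 and 254 CPM in MFL ILC1, higher in every ILC1 library by 2.64-fold (log2 1.40 ± 0.38 SE, edgeR adjusted p = 0.0712). That call was lost on leaving out any MFL library, with adjusted p from 0.134 without MFL ILC1 replicate 3 to 0.299 without MFL NK replicate 1, while the log2 fold change stayed between 1.32 and 1.45.

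These were the 2 of 7 tested genes that passed between MFL ILC1 and MFL NK cells, where 3.06% of all genes did. Il10rb was at 148, 148 and 138 CPM in MFL NK cells and 120, 125 and 122 CPM in MFL ILC1, lower without overlap yet not past the test (log2 -0.25 ± 0.28 SE). Stat3 (326, 343 and 324 against 208, 331 and 275 CPM) and Stat6 (190, 243 and 233 against 161, 223 and 178 CPM) did not pass. T cell markers were highest for MFL ILC1. The 6 of them summed to 247, 534 and 681 CPM in its replicates and to at most 35.7 CPM elsewhere. Nearly all came from Cd3g (224 to 668 CPM), while Cd3e was at 0 to 0.366 CPM in MFL ILC1. Il4ra fell over these ILC1 replicates, from 290 to 254 CPM. In LM CD49a- NK replicates 1 and 3 it was at 334 and 493 CPM, with marker sums of 17.7 and 17.3 CPM. In replicate 2 both were low (109 and 11.9 CPM). The part of these markers in the Il4ra difference was not tested.

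**Figure D4:**
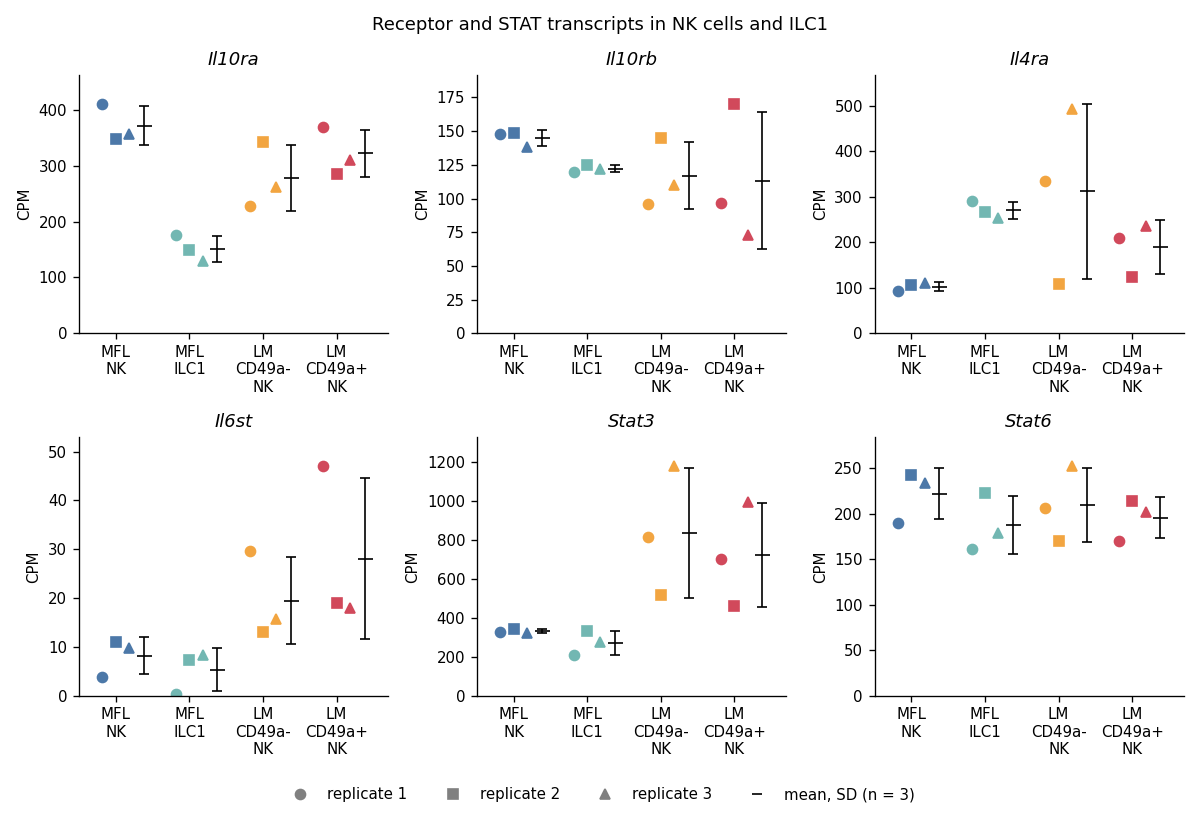
CPM of 6 transcripts in the 4 lymphocyte populations, with the replicate as symbol and the mean and SD (n = 3) beside it. Il10ra is lowest in the 3 MFL ILC1 libraries, and Stat3 lies between 463 and 1182 CPM in the LM libraries and between 208 and 343 CPM in the MFL libraries. Il4ra has its lowest mean in MFL NK cells, with LM CD49a- NK replicate 2 within their range.

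The kinases that serve these receptors also differed between MFL ILC1 and MFL NK cells, where 7 of the 49 listed genes tested passed, 4 higher and 3 lower. Jak1 was at 959 ± 95 CPM in ILC1 and 1887 ± 99 CPM in NK cells (log2 -0.98, edgeR adjusted p = 0.0150) and Tyk2 at 143 ± 14 against 280 ± 25 CPM (log2 -0.96), so that Il10ra and both kinases of its receptor were lower in ILC1. Jak2 was higher, at 306 ± 45 against 126 ± 11 CPM (log2 1.28). The feedback inhibitors Socs2 (80.0 ± 10.3 against 6.15 ± 3.45 CPM, log2 3.70) and Cish (163 ± 38 against 23.2 ± 10.2 CPM, log2 2.81) were higher in ILC1, Osm was lower (7.41 ± 3.27 against 37.3 ± 9.0 CPM, log2 -2.33), and Cdh1 stood at 55.8 ± 16.3 against 0.049 ± 0.085 CPM.

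Metastatic and metastasis-free NK cells were compared next. In LM, Stat3 was at 814, 516 and 1182 CPM in CD49a- and 704, 463 and 997 CPM in CD49a+ NK cells, and all 6 libraries lay above the 3 MFL NK libraries. The differences were 2.53-fold for CD49a- NK cells (log2 1.34 ± 0.31 SE, edgeR adjusted p = 0.243) and 2.18-fold for CD49a+ NK cells (log2 1.12 ± 0.31 SE, edgeR adjusted p = 0.172), neither past the threshold. DESeq2 passed both (adjusted p = 0.00274 and 0.0170). Replicate 2 was the lowest library of both LM populations: without LM CD49a- NK replicate 2 the first comparison reached an edgeR adjusted p of 0.0274 and the second 0.0638, and without LM CD49a+ NK replicate 2 the second reached 0.0630.

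Il4ra was at 334, 109 and 493 CPM in LM CD49a- NK cells, of which replicate 2 lay within the MFL NK range, and at 210, 123 and 236 CPM in their CD49a+ counterparts. Against MFL NK cells the log2 differences were 1.60 ± 0.38 SE (edgeR adjusted p = 0.255, and 0.00523 without LM CD49a- NK replicate 2) and 0.89 ± 0.38 SE (edgeR adjusted p = 0.462). Il6st was at 29.6, 12.96 and 15.8 CPM in the CD49a- NK cells of LM and 47.1, 19.0 and 18.0 CPM in the CD49a+ ones, above the 3.92, 11.1 and 9.69 CPM of MFL NK cells in every library. Neither difference passed (edgeR adjusted p = 0.931 and 0.633), and Il10rb and Stat6 overlapped in both comparisons and did not pass. Il10ra lay below the MFL NK range in every LM CD49a- NK library and did not pass either (log2 -0.42 ± 0.22 SE, edgeR adjusted p = 0.765).

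Of the 7 genes tested, 0 passed with edgeR in LM CD49a- NK against MFL NK cells, where 0.0736% of all genes passed, and 0 in LM CD49a+ NK against MFL NK cells, where 0.647% did. In each, 2 of the 7 (Il4ra and Stat3) had an unadjusted p under 0.05, and DESeq2 passed 2 and 1. Without LM CD49a- NK replicate 2 the number of these genes that passed with edgeR rose to 2 and 1. Of the listed genes, Cish was higher in both LM populations, at 131 ± 89 CPM in LM CD49a- and 148 ± 53 CPM in LM CD49a+ NK cells against 23.2 ± 10.2 CPM in MFL NK cells (log2 2.50 and 2.67, edgeR adjusted p = 0.0675 and 0.0112). Etv3, a repressor induced by IL-10, was higher in LM CD49a+ NK cells (410 ± 157 against 129 ± 26 CPM, log2 1.67), and Cdh1 was at 28.1 ± 20.4 against 0.049 ± 0.085 CPM.

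Between the LM populations few genes of any kind passed with edgeR (0.14%). Il10ra was at 227, 343 and 262 CPM without CD49a and at 369, 286 and 311 CPM with it, with overlap (log2 0.21 ± 0.22 SE). Il10rb (96.2, 145 and 110 against 96.3, 171 and 73.1 CPM), Stat3 and Stat6 (206, 171 and 253 against 170, 214 and 202 CPM) overlapped as well, and Il4ra was lower by a log2 of -0.72 ± 0.38 SE (edgeR adjusted p = 0.470). With edgeR 0 of 7 passed, 0 had an unadjusted p under 0.05 and DESeq2, which called 543 genes in all, passed 0. With so few calls by edgeR in all, its count says little about these genes.

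LM CD49a+ NK cells differed from MFL ILC1, the other population that carries CD49a, in 2 of the 7 genes, where 3.58% of all genes passed. Il10ra was 2.13-fold higher in LM CD49a+ NK cells without overlap (log2 1.09 ± 0.22 SE, edgeR adjusted p = 0.0111), and so was Stat3, by 2.66-fold (log2 1.41 ± 0.31 SE, edgeR adjusted p = 0.0172). The Stat3 call was lost without MFL ILC1 replicate 1 (0.122) or LM CD49a+ NK replicate 3 (0.105). Socs3 was higher alongside Stat3, at 230 ± 144 against 45.7 ± 3.5 CPM (log2 2.33, edgeR adjusted p = 0.00310), as were Jak1 (1702 ± 303 against 959 ± 95 CPM, log2 0.83) and Myc (218 ± 88 against 76.4 ± 6.0 CPM, log2 1.51), which made 3 of the 49 listed genes. Il6st was higher in every LM CD49a+ NK library (47.1, 19.0 and 18.0 against 0.255, 7.39 and 8.43 CPM) and passed with DESeq2 (adjusted p = 0.0998) but not with edgeR (log2 2.38 ± 1.01 SE, adjusted p = 0.290). Il4ra lay below the MFL ILC1 range in every LM CD49a+ NK library and did not pass (log2 -0.51 ± 0.37 SE, edgeR adjusted p = 0.656). The 5 proliferation markers moved along with this comparison, summing to 653 to 1056 CPM in LM CD49a+ NK cells and 102 to 216 CPM in MFL ILC1, and their part was not tested.

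The difference that goes with CD49a was set against itself in the tissues, as LM CD49a+ over LM CD49a- NK cells relative to MFL ILC1 over MFL NK cells. The MFL populations also differ in CD49b and in cell type, whereas both LM populations are CD49b+ NK cells. Site and cell type therefore cannot be told apart in this term. It differed for Il10ra (log2 1.51 ± 0.31 SE, edgeR adjusted p = 0.0307) and for Il4ra (log2 -2.12 ± 0.53 SE, edgeR adjusted p = 0.0974), 2 of the 7 genes, where 1.03% of all genes passed. Il10ra was lower and Il4ra higher with CD49a in metastasis-free liver, and neither difference passed in LM. Both calls were lost without MFL NK replicate 1, MFL ILC1 replicate 2 or MFL ILC1 replicate 3, and the Il4ra call was lost on leaving out 11 of the 12 libraries in turn.

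Per kb of exon, Il10ra had the highest level of the 9 genes in every MFL NK library (85.0 CPM per kb on average). In LM, Il10ra and Stat3 led and overlapped, at 73.6 ± 9.8 and 71.4 ± 26.5 CPM per kb with CD49a and at 63.5 ± 13.6 and 82.9 ± 33.0 CPM per kb without it. In MFL ILC1 the mean was highest for Il10ra (34.6), and its libraries overlapped those of Stat6 (28.1) and Stat3 (26.9 CPM per kb), which overlapped Il4ra (27.1) in turn, whereas in MFL NK cells Il4ra (10.3 CPM per kb) lay below Il10rb (23.6) in every library. In metastasis-free liver the ratio of Il10ra to Il10rb was 3.90, 3.28 and 3.62 for NK cells and 2.06, 1.67 and 1.48 for ILC1. In LM it was 3.32, 3.33 and 3.34 for CD49a- and 5.38, 2.35 and 5.97 for CD49a+ NK cells. The ratio of Stat3 to Stat6 ran from 0.921 to 1.13 for NK cells and from 0.856 to 1.02 for ILC1 of metastasis-free liver, and from 2.00 to 3.10 for CD49a- and 1.43 to 3.26 for CD49a+ NK cells of LM, so that LM and MFL NK cells did not overlap (exact permutation p = 0.1, adjusted 0.175, for each LM population). In LM CD49a+ NK cells replicate 2 had the lowest value of both ratios.

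Over the 12 lymphocyte libraries the genes closest to Il10ra in log2 CPM, of 9774 ranked, were the spectrin Sptbn1 (Pearson r = 0.96), the Ly49 receptor gene Klra7 (0.95) and Cdk2ap1 (0.94). Klra7 averaged 20.3 CPM for MFL ILC1 and 181 to 229 CPM for the NK cell populations, the same low population as for Il10ra. H2-Q4 and Gimap6 were among those closest to Il4ra (r = 0.89 for each). The libraries share their populations and differ in depth, and the coefficients are a description.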

How the data were processed

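Bulk RNA-seq was available for 6 MAM and 12 lymphocyte libraries. Per the labels and the methods of the study, the authors trimmed reads with Trim Galore and quantified them with Salmon (version 1.10.0 for MAMs, from a directional poly(A) kit, and 1.5.0 for lymphocytes, from a stranded total RNA kit), on GRCm39. The authors deposited estimated counts, already as whole numbers. The MAM table holds no gene with a total under 37, and its annotation is not given in the sources used here. Library identity and group came from the labels.

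Identifiers were matched without their version to GENCODE vM39 of GRCm39 (13726 of 13759 and 53700 of 54309). Each table was fitted separately with edgeR 4.0.16 (filterByExpr, TMM, quasi-likelihood, all groups of a table in the fit, R 4.3.3), and calls were made at an adjusted p under 0.1 over all genes. CPM used TMM library sizes. Alternatives were DESeq2 1.42.0, RLE size factors, no filter, a replicate block, the compared groups alone and leaving out each library. Simulated data with known changes were used to test the fits. Named genes were the 9 members and, per list and comparison, up to 4 called genes with the largest change and a mean of at least 5 CPM in a group. The members and lists were chosen with earlier results of these data known. Replicate numbers were not taken as pairs. Some list and nearest genes are not reported here.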

Additional observations from a re-analysis of the deposited data

Results flagged for a closer look

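The difference that goes with CD49a was not the same in metastasis and in metastasis-free liver for 2 of the 7 genes tested. The test was the interaction term of the edgeR fit, which called 1.03% of all genes. In MFL the term sets ILC1 against NK cells, and in LM it compares only NK cells. Site and cell type therefore cannot be told apart in it. For Il10ra the term was 1.51 on the log2 scale (adjusted p = 0.0307): in metastasis-free liver the gene was 2.46-fold lower for ILC1 than for NK cells (3 of 3 ILC1 libraries lay below the NK range) and 1.16-fold higher, with overlap, in LM CD49a+ than in LM CD49a- NK cells. For Il4ra the term was -2.12 (adjusted p = 0.0974): the gene was 2.64-fold higher in MFL ILC1 and 1.65-fold lower, with overlap, in LM CD49a+ NK cells. The Il10ra term was between 1.41 and 1.499, with adjusted p from 0.104 to 0.119, without MFL NK replicate 1, MFL ILC1 replicate 2 or MFL ILC1 replicate 3. The Il4ra term no longer passed on leaving out 11 of the 12 libraries in turn (adjusted p from 0.114 to 0.264), the exception being LM CD49a- NK replicate 2.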

How the results depend on the processing

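Of 793 fold changes of the described genes recomputed under an alternative, 734 kept their direction and side of the threshold, 27 lost the call, 12 gained it and 20 changed sign. The sign changes came from leaving out a library in 12 lymphocyte results, none of them called with or without it. The log2 ranges on leaving out a library were, for LM CD49a+ against LM CD49a- NK cells, -0.47 to 0.19 for Il10rb, -0.085 to 0.96 for Il6st, -0.52 to 0.11 for Stat3 and -0.23 to 0.054 for Stat6. For LM CD49a+ NK against MFL ILC1 they were -0.53 to 0.12 for Il10rb, -7.97 to 0.068 for Il6ra and -0.042 to 0.20 for Stat6, for LM CD49a+ against MFL NK cells -3.33 to 6.14 for Il6ra, and for LM CD49a- against MFL NK cells -0.25 to 0.042 for Stat6. For the interaction they were -0.22 to 0.44 for Il10rb, -4.63 to 3.39 for Il6ra and -0.23 to 0.42 for Stat3. Il6ra was at 0 in 8 of the 12 lymphocyte libraries, so its fitted values depend on the prior count. In MAMs all 9 genes passed under every alternative except that Il10 was lost with RLE size factors and without any of 4 libraries, as given above. The lymphocyte counts of called genes were unstable and the cause was not tested. LM CD49a+ against LM CD49a- NK cells called 19 genes, and 543 with DESeq2, 200 without a filter, 3 with the compared groups alone and 5 to 267 on leaving out a library. LM CD49a+ against MFL NK cells called 88, and 365 with DESeq2, 371 without a filter and 26 to 168 on leaving out a library, with 1, 2 and 0 to 1 of the 7 members. LM CD49a- against MFL NK cells called 10, and 161, 158, 3 with the compared groups alone and 1 to 110, with 2 members by DESeq2, 2 without a filter and 0 to 2 on leaving out a library. MFL ILC1 against MFL NK cells called 416, and 667 with DESeq2, 1228 with the compared groups alone and 268 to 562 on leaving out a library (1 to 2 members). LM CD49a+ NK against MFL ILC1 called 486, and 1010 with DESeq2, 774 without a filter and 257 to 708 on leaving out a library (1 to 2 members). The interaction called 140, and 349 with DESeq2, 264 without a filter and 75 to 256 on leaving out a library (0 to 2 members). 

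The share of calls that were higher in LM CD49a+ against MFL NK cells was 52.1% with DESeq2 and 71.3% with RLE size factors. Deviations of same-numbered libraries correlated at 0.020 to 0.282 in MAMs and -0.118 to 0.085 in lymphocytes, not above 0.1 in every pair, so the numbers were not taken as pairs. Each LM library correlated best with its own number in the other LM population, weakly (0.016 to 0.085). LM CD49a- NK replicate 1 was nearly tied (0.0161 with its own number, 0.0152 with replicate 3). The same order held between MFL NK and LM CD49a+ NK libraries (0.039 to 0.063), so it was not particular to LM and does not give the design. Stat3 was lower with CD49a in each of the 3 same-numbered LM pairs (-0.21 on the log2 scale with the block, adjusted p = 0.860). A replicate block called 7512 genes in place of 7555 in MAMs, all 9 described genes among them (Il10 at adjusted p = 0.0121), and 24, 101, 15, 445, 484 and 127 genes in the lymphocyte comparisons in the order above. At the depth of these libraries, Il10, Il13ra1 and Il6ra were at or near the detection limit in lymphocytes.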
